A study of Homo sapiens with 8 samples.

Results

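The TCEAL genes TCEAL1 to TCEAL8 were followed across 8 Affymetrix arrays of HEK293T RNA. The 8 symbols were matched through the platform annotation, and each had 1 transcript cluster, so 8 of 53617 clusters with values belong to the family. The family was chosen by a measured value, the wild-type minus mutant difference of TCEAL7, so that contrast is described here for all members and not tested. A filter on low signal asked for values above the array's median on 2 or more of the 8 arrays. It kept 6 members (TCEAL1, TCEAL3, TCEAL4, TCEAL5, TCEAL7 and TCEAL8) among 28946 clusters, and TCEAL2 and TCEAL6 lay below the median on every array.

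HEK293T is a human embryonic kidney line carrying the SV40 large T antigen, and every array held RNA of this line. In 1 arm lentivirus delivered the shRNA, and 1 array was run for a clone with control shRNA (shControl) and 1 for each of 2 clones with a TET1 shRNA of their own (shTET1#1 and shTET1#2). In the other arm cells were transfected with a plasmid and sorted by fluorescence 3 days later, with 1 array for the empty vector, 1 each for wild-type TET1-CD and TET1-FL, and 1 each for their mutants mTET1-CD and mTET1-FL. TET1 oxidises 5-methylcytosine in DNA, and the prefix m marks the catalytically mutant protein. The labels do not spell out CD and FL, which are read here as catalytic domain and full length. The labels name no separate cultures, so p-values measure the spread between these arrays only. That spread holds differences between shRNA clones and between constructs, and may be technical in part. Bulk RNA cannot tell fewer expressing cells from less RNA per cell.

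TCEAL proteins are small proteins named for sequence similarity to TFIIS, the factor (encoded by TCEA1) that restarts RNA polymerase II after it backtracks. Their genes lie on the long arm of chromosome X among the BEX genes, a related family of small proteins. TCEAL7 is the member most studied in cancer, where it has been described as silenced by promoter methylation and as a restraint on MYC and NF-kB.

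The promoters show what members have in common beyond their values. RefSeq promoter windows of 300 bases (250 before to 50 after the annotated start, GRCh38.p14) were matched for 7 of the 8 members, all but TCEAL7, with a pair of windows for TCEAL1. Both strands were searched for the E-box CACGTG, a palindrome, and for TGACG, the cyclic AMP response half-site. Each of the 7 genes had 1 E-box in a window, against 7.26% of all 35116 promoter windows, and TGACG was in 24.6% of them. The E-box is not particular to these genes, since BEX1, BEX2, BEX3 and BEX4 also had it in a window. BEX5 and TCEAL9 did not. The families are related, so their windows are not independent of each other. In TCEAL2, TCEAL3, TCEAL5, TCEAL6 and TCEAL8 a TGACG stood exactly 7 bases before the E-box. That spaced pair, TGACG and CACGTG with any 7 bases between, was found in 15 of the 35116 windows (0.0427%), and 5 of those 15 were TCEAL windows. The spacing was noticed on reading these promoters and is a description. The stretches around the E-box are printed to show this shared arrangement, 5′ to 3′ on the gene's strand and ending before the start site, with TGACG (where it lies close upstream) and CACGTG in capitals.
TCEAL1 (chrX:103628895-103628944, + strand): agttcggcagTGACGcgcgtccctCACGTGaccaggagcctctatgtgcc
TCEAL2 (chrX:102125603-102125652, + strand): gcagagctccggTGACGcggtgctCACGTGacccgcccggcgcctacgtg
TCEAL3 (chrX:103607859-103607908, + strand): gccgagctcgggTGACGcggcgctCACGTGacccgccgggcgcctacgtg
TCEAL4 (chrX:103585481-103585514, + strand): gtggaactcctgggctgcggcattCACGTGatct
TCEAL5 (chrX:103276771-103276820, - strand): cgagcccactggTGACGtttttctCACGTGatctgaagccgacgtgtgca
TCEAL6 (chrX:102142503-102142552, - strand): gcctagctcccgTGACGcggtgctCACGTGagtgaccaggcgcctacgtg
TCEAL8 (chrX:103255161-103255210, - strand): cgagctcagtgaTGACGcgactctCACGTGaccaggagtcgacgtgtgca

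In TCEAL1 the gap between TGACG and CACGTG was 9 bases, and TCEAL4 had an E-box at -10 with no TGACG in its window. TCEAL9, a close relative, had TGACG and no CACGTG. The BEX1 and BEX3 windows with an E-box had the wider gap of 9 bases, as in TCEAL1. Apart from the TCEAL genes, the 7-base gap on chromosome X was found in windows of ARMCX1, ARMCX6 and LOC105373299. Such a match is a string of letters in a window and does not show that a factor binds there.

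**Figure D1:**
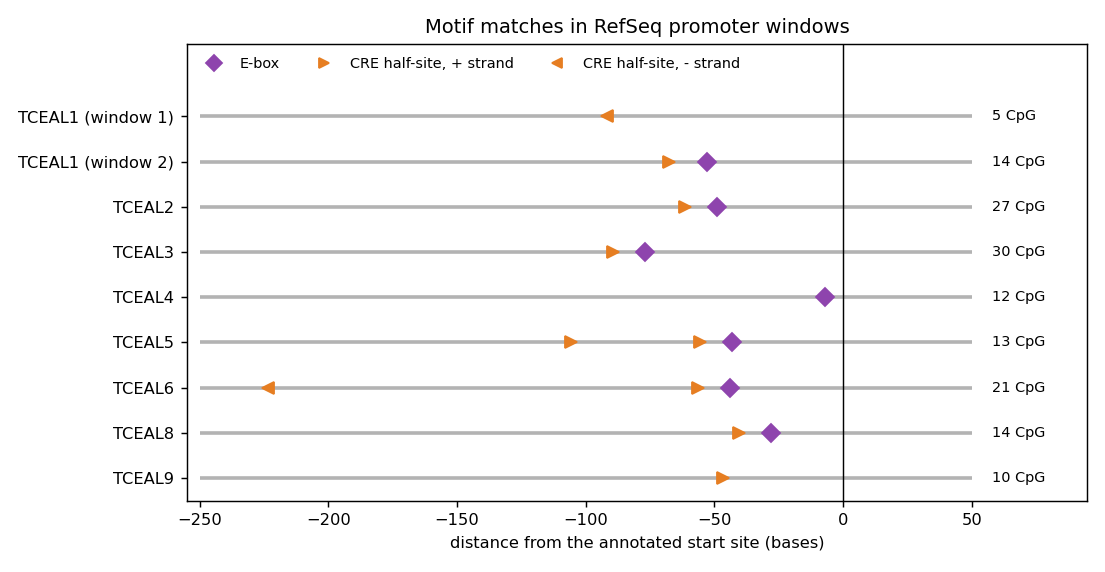
Motif matches in the promoter windows of the TCEAL genes and TCEAL9, by distance from the annotated start in bases; diamonds mark the E-box, triangles TGACG pointing along its strand, and the number of CpG dinucleotides per window stands at the right. In TCEAL2, TCEAL3, TCEAL5, TCEAL6 and TCEAL8 the half-site lies 7 bases before the E-box.

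Whole windows of the members also differed in CpG count. TCEAL3, TCEAL2 and TCEAL6 had 30, 27 and 21 CpG dinucleotides in 300 bases, and their promoters were 75.7% to 78.0% identical to each other in pairwise global alignment. TCEAL8, TCEAL5 and TCEAL4 had 14, 13 and 12, and the windows of TCEAL1 had 14 and 5. The median over all windows was 14, with quartiles of 4 and 28, so among the members only TCEAL3 lay outside the quartiles. TCEAL8 and TCEAL5 were 64.7% identical, and TCEAL8 and the second window of TCEAL1 67.0%. TCEAL9, which is not among the 8 members, was closer, at 69.0% to TCEAL8 and 66.7% to TCEAL5. Other pairs were not far below, such as TCEAL8 and the downstream window of BEX4 at 63.3%. TCEAL3, TCEAL5 and TCEAL6 encode closely similar copies, so their probes may pick up each other's RNA and their values are uncertain. Cross-hybridisation was not tested.

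TET1 itself was checked first. On the log2 scale its brighter transcript cluster (by the mean over the 8 arrays) read 9.29 for shControl, 8.62 for shTET1#1 and 9.14 for shTET1#2. Its other cluster read 5.71, 5.27 and 6.20 in the same order. With plasmids the brighter cluster read 10.42 for TET1-CD, 11.05 for mTET1-CD, 12.22 for TET1-FL and 12.47 for mTET1-FL, against 9.51 with the vector. This cluster was thus higher with the mutant than the wild type in each construct and higher with FL than CD. The other cluster read 12.10 for TET1-CD, 12.03 for mTET1-CD, 11.80 for TET1-FL and 11.91 for mTET1-FL, against 5.86 with the vector. Its order differed: both CD arrays lay above both FL arrays, and the mutant exceeded the wild type in FL only. The clusters do not give the same order of TET1 levels. The part of TET1 level in the comparisons between plasmids was not tested. The clone shTET1#2 did not have clearly reduced TET1, and is called the array labelled shTET1#2. Of 8 HEK293T markers, 6 were named on the array and all 6 lay above the array median on every array. Of 9 markers of leukocytes, endothelium, hepatocytes and fibroblasts, 5 were named, 4 lay below the median on every array, and the apolipoprotein gene APOA1 lay above it on every array.

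TCEAL7 (transcript cluster 17105699) had the widest range of the 8 members. Its log2 signal was 4.45 in shControl and 5.54 in shTET1#1. The array labelled shTET1#2 read 5.22 and the empty vector 5.36. With plasmids it was 5.83 for TET1-CD, 4.78 for mTET1-CD, 6.74 for TET1-FL and 5.56 for mTET1-FL. The TET1-FL array was highest and the shControl array lowest, 2.29 apart. In ascending order the arrays ran shControl, mTET1-CD, the array labelled shTET1#2, vector, shTET1#1, mTET1-FL, TET1-CD and TET1-FL. The only pair of arrays in 1 group, the TET1 shRNA clones, lay 0.33 apart, and 3 of the 7 steps in this order were larger than that. These were the steps from shControl to mTET1-CD (0.328, against 0.325 between the clones), from mTET1-CD to the array labelled shTET1#2 (0.44) and from TET1-CD to TET1-FL (0.91). Neighbouring arrays between the array labelled shTET1#2 and TET1-CD differed by less than the clones did. The clones carry different TET1 shRNAs, so the gap between them is not a measure of repeat error. By the same count, each gene against its own clone gap, TCEAL1 had 2 such steps, TCEAL4 had 1 and every other member had 0. The clone gap ran from 0.048 in TCEAL4 to 0.80 in TCEAL6, so these counts do not rank the members. The step up to TET1-FL in TCEAL6 was 0.76, and the step from shTET1#1 to TET1-CD in TCEAL3 was 0.44. Both fell below the clone gaps of their genes, 0.80 and 0.64. TCEAL7 lay above the array median in 4 arrays, and in 2 of them by only 0.066 (shTET1#1) and 0.0091 (mTET1-FL). The other 4 arrays read below the median.

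**Figure D2:**
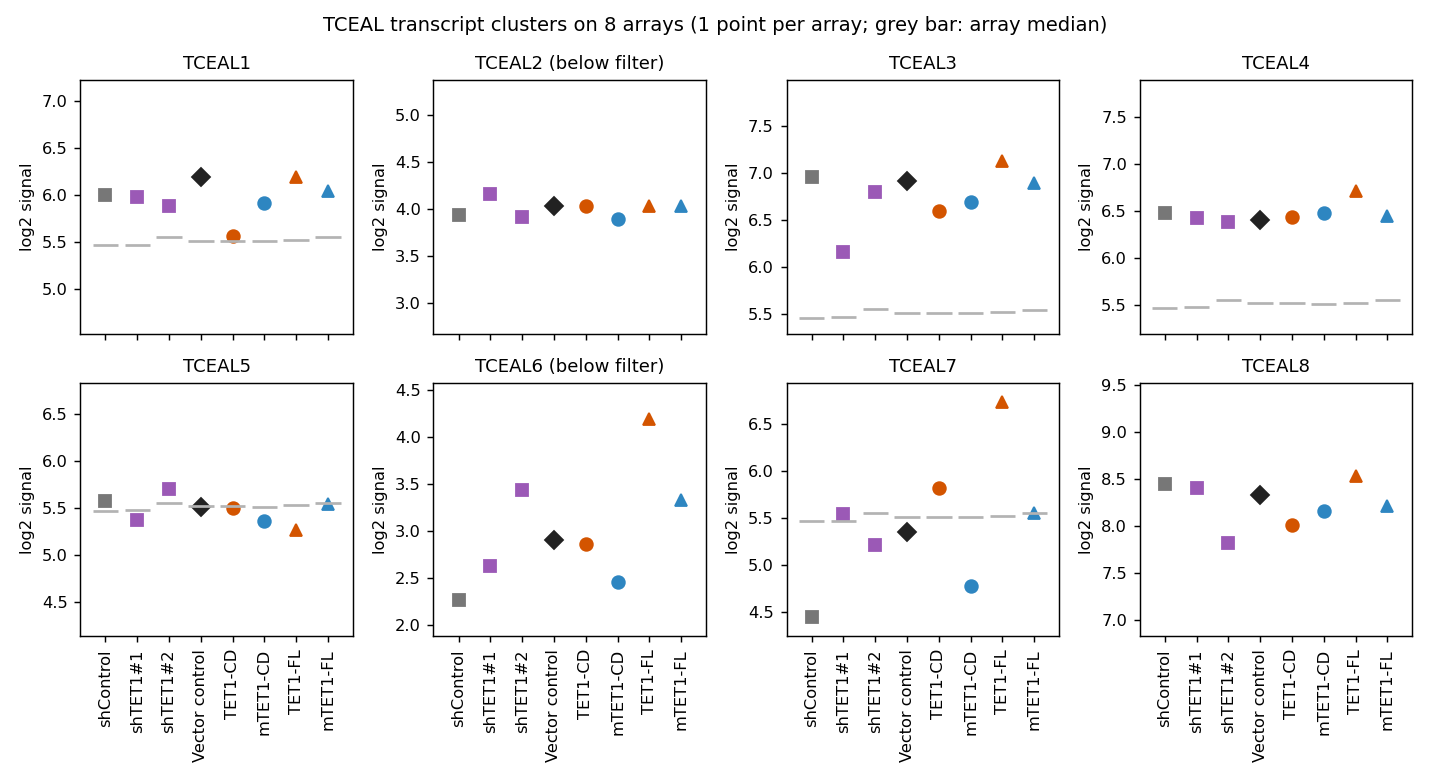
Log2 signal of the 8 TCEAL transcript clusters on each of the 8 arrays, 1 point per array, each panel spanning the same number of log2 units; grey bars are array medians where they fall inside the panel. TCEAL7 runs from 4.45 (shControl) to 6.74 (TET1-FL) and crosses the medians, whereas TCEAL4 spans only 0.33.

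The next question was how TCEAL7 compared with its relatives when wild-type TET1 replaced the mutant. TCEAL7 was 2.07-fold higher with TET1-CD than with mTET1-CD (1.05, log2) and 2.26-fold higher with TET1-FL than with mTET1-FL (1.18). These values chose the family and have no test. Among all 28946 kept clusters, 0.0104% were at least 2-fold higher in both constructs, and 25.0% were higher by any amount in both. Of the 6 kept members only TCEAL7 was higher in both, and of all 8 members TCEAL7 and TCEAL6 were. The median over all kept clusters was 0 in each construct, and the SD was 0.24 in CD and 0.27 in FL.

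TCEAL6 (17112849) stood at 2.86 with TET1-CD and 2.46 with mTET1-CD, and at 4.19 with TET1-FL and 3.33 with mTET1-FL. These are differences of 0.40 and 0.86 on readings that all lay below the array median by at least 1.34. It read 2.27 in shControl, 2.63 in shTET1#1 and 2.90 with the vector, and 3.43 for the array labelled shTET1#2. As for TCEAL7, shControl was lowest, mTET1-CD next and TET1-FL highest.

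The remaining members did not share a direction. TCEAL8 (17112956) was 8.01 with TET1-CD and 8.16 with mTET1-CD, and 8.53 with TET1-FL and 8.21 with mTET1-FL. TCEAL1 (17105757), a nuclear phosphoprotein able to modulate transcription, differed by -0.36 in CD and 0.15 in FL. TCEAL3 (17105747) differed by -0.092 and 0.24, and TCEAL4 (17105733) by -0.040 and 0.26. These 4 genes were thus lower with wild type in CD and higher in FL. TCEAL5 (17112963) went the opposite way, with 0.15 in CD and -0.27 in FL. TCEAL2 (17105543) was nearly flat, with 0.14 in CD and 0 in FL, and 4 of its arrays (vector, TET1-CD, TET1-FL and mTET1-FL) held the identical value of 4.03. Each of these differences is between 1 array and 1 array. The signs held under median centring and cyclic loess, except for TCEAL2 in FL, which was 0.027 with centring and -0.0084 with loess.

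**Figure D3:**
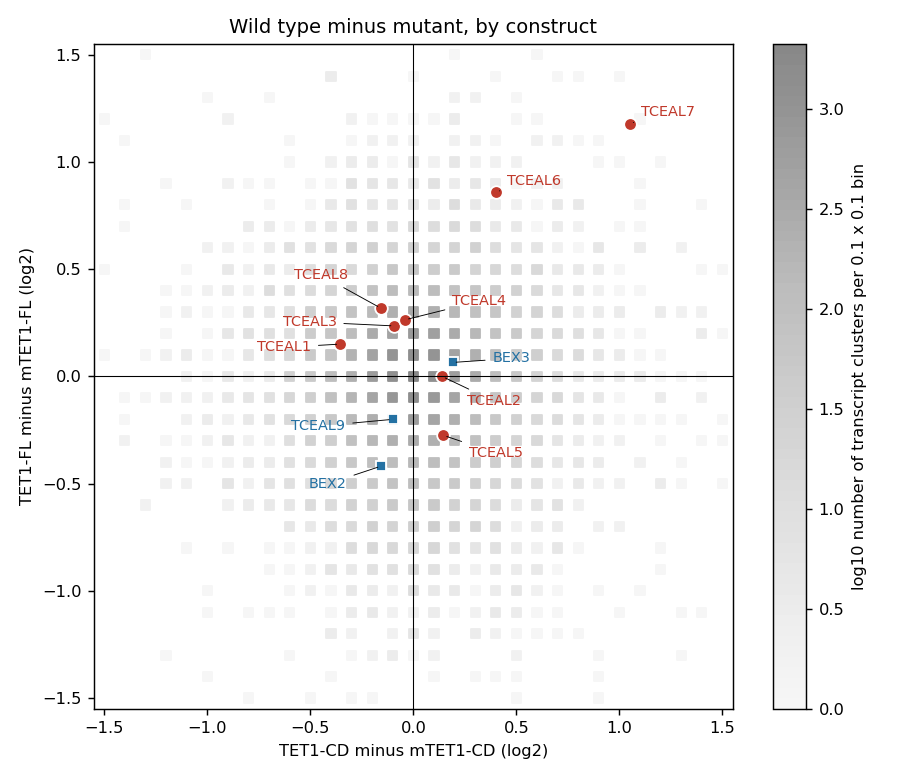
Wild type minus mutant (log2) in CD on the x axis and in FL on the y axis, with TCEAL genes as circles, TCEAL9, BEX2 and BEX3 as squares, and the number of kept clusters per bin in grey; clusters beyond the axes are not drawn. TCEAL7 lies at 1.05 and 1.18 and TCEAL6 at 0.40 and 0.86, and the other members lie within 0.36 of 0 on both axes.

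The genes around TCEAL7 were read for the same difference. Of the 10 measured genes nearest to TCEAL7 in RefSeq order on chromosome X, 5 on each side, 0 were 2-fold apart between wild type and mutant in either construct, and only 1.21% of all kept clusters were, so this count is near the background. In CD they ranged from -0.58 (NXF3, an mRNA export factor relative, below the filter) to 0.19 (BEX3). In FL they ranged from -0.42 (BEX2) to 0.32 (TCEAL8). Only BEX3 was higher in both constructs, at 0.19 and 0.065. The flanking genes BEX2 and TCEAL9 were lower in both, by -0.16 and -0.42 for BEX2 and by -0.10 and -0.20 for TCEAL9. LINC00630, a noncoding RNA gene at the edge of this set, differed by 0.10 and -0.065.

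**Figure D4:**
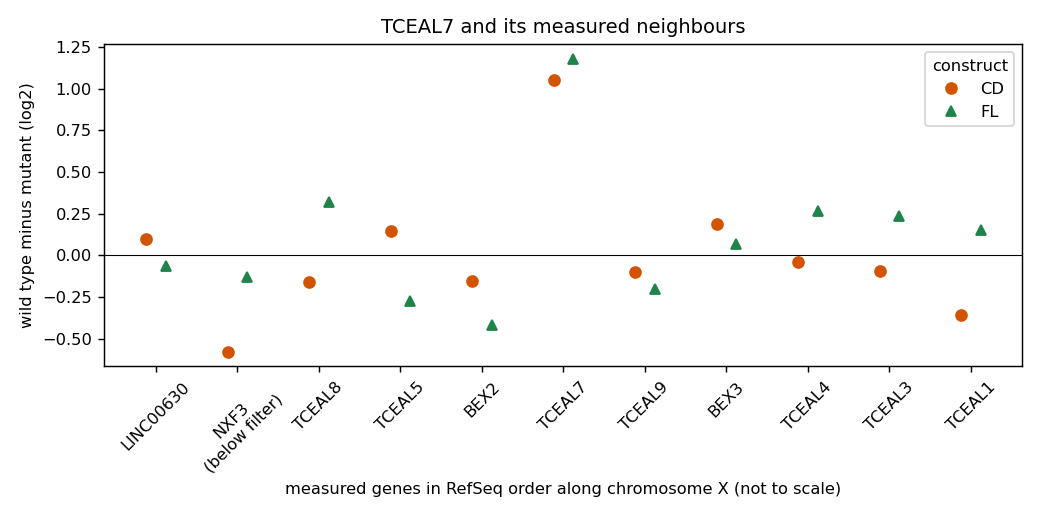
Wild type minus mutant (log2, y axis) for TCEAL7 and the 5 nearest measured genes on each side in RefSeq order (x axis, not to scale), with circles for CD and triangles for FL, 1 array on each side of every difference. TCEAL7 stands at 1.05 and 1.18, and the other 10 genes lie between -0.58 and 0.32.

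The comparisons that the rule did not use were tested in 1 limma fit over all kept clusters, with Benjamini-Hochberg adjustment. The residual spread has 2 sources, how far the TET1 shRNA clones lie apart and how far wild type minus mutant differs between CD and FL. TCEAL7 was picked because it rises with wild type over mutant, and its own spread draws partly on those same values. Its p-values may therefore be too small. Across the family, 0 of 6 kept members passed an adjusted p of 0.05 for TET1 shRNA, for plasmids against the vector or for FL against CD, where the background was also 0% in each.

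For TET1 shRNA against the control clone, TCEAL7 differed upward by 0.93 ± 0.20 (SE; limma adjusted p = 0.497). It was 1.09 higher in shTET1#1 and 0.77 higher in the array labelled shTET1#2, both measured against the same control array. A fit of only the 3 shRNA arrays was added after the data were seen, and its spread holds nothing of the plasmid arrays. The difference was the same there, at 0.93. The spread of each cluster then comes only from the gap between the clones, so that fit could not decide whether TCEAL7 differs. Its p-value is not used. The empty vector array, which holds no shRNA, was itself 0.91 above shControl, and against the vector the TET1 shRNA difference of TCEAL7 was 0.023. The HEK293T marker EYA1, a developmental transcription cofactor, was also lowest in shControl, at 6.31 against 7.66 to 8.65 on the other 7 arrays. The 6 HEK293T markers did not move together: 3 of 6 lay above 0 for TET1 shRNA, and VIM, an intermediate filament gene, was higher in shControl (8.60) than in shTET1#1 (8.04) or the array labelled shTET1#2 (8.01). The part of EYA1 or of the shControl array in the TCEAL7 difference was not tested.

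Of the members, TCEAL7 and TCEAL6 were higher than shControl in both clones, and 29.4% of all kept clusters were. TCEAL1, TCEAL3, TCEAL4 and TCEAL8 were lower in both, as were 33.1% of all kept clusters. TCEAL3 read 6.96 for shControl, 6.16 for shTET1#1 and 6.80 for the array labelled shTET1#2, a fitted difference of -0.48 ± 0.30 (limma adjusted p = 0.777). Its low reading was thus in 1 clone. TCEAL8 showed the reverse, at 8.45 for shControl, 8.40 for shTET1#1 and 7.82 for the array labelled shTET1#2 (-0.34 ± 0.30, limma adjusted p = 0.843). TCEAL1, TCEAL4 and TCEAL5 differed by -0.070, -0.072 and -0.039. The median over the 6 members was -0.071, beside -0.010 over all kept clusters. At an unadjusted p under 0.05, 1 of the 6 (TCEAL7) stood beside a background of 7.93%.

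Against the empty vector, the mean of the 4 TET1 plasmids was 0.37 ± 0.18 higher for TCEAL7 (limma adjusted p = 0.409). This mean hides a spread by plasmid. TCEAL7 was 1.38 above the vector with TET1-FL, 0.47 with TET1-CD and 0.21 with mTET1-FL, and 0.58 below it with mTET1-CD (difference -0.58). Without the FL arrays the fitted difference turned to -0.054, and without the CD arrays it was 0.80. TCEAL4 was the only member above the vector with all 4 plasmids, by 0.029 to 0.31, as were 27.2% of all kept clusters. TCEAL1 read 6.19 with the vector. It read 5.56 and 6.19 with wild-type CD and FL, and 5.92 and 6.04 with their mutants, a fitted difference of -0.26 ± 0.19. TCEAL3, TCEAL5 and TCEAL8 had fitted differences of -0.088, -0.090 and -0.10. The family median was -0.089, beside 0.0014 for all kept clusters, and 0 of 6 members had an unadjusted limma p under 0.05, where the background was 15.0%.

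Between the constructs, 0 of 6 kept members passed the threshold, where the background was 0%. The fitted FL minus CD difference was above 0 in 5 of the 6 kept members, with a median of 0.33 beside 0.0031 over all kept clusters, of which 50.7% lay above 0. Among these 6, TCEAL7 had the largest, 0.85 ± 0.16 (limma adjusted p = 0.152), being 0.91 higher with TET1-FL than TET1-CD and 0.79 higher with mTET1-FL than mTET1-CD. TCEAL6, below the filter and not tested, had a larger FL minus CD difference of 1.10. The arrays of the constructs nevertheless overlapped for TCEAL7, since TET1-CD (5.83) exceeded mTET1-FL (5.56). In TCEAL1, TCEAL3 and TCEAL8 both FL arrays lay above both CD arrays. That makes 3 of 6 kept members, or 4 of 8 with TCEAL6, beside 27.6% of all kept clusters. TCEAL3, for example, was 7.13 with TET1-FL and 6.90 with mTET1-FL, against 6.60 and 6.69 with TET1-CD and mTET1-CD. The fitted differences were 0.38 ± 0.17 for TCEAL1, 0.37 ± 0.25 for TCEAL3, 0.29 ± 0.25 for TCEAL8, 0.13 ± 0.14 for TCEAL4 and -0.028 ± 0.18 for TCEAL5. The limma adjusted p-values ran from 0.152 to 0.974, and 1 of 6 (TCEAL7) had an unadjusted p under 0.05, where the background was 13.7%. The signs of all 6 held under median centring and cyclic loess.

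The related genes near TCEAL7 on chromosome X were read in the same comparison. TCEAL9, also called WBP5, stood at 8.75 with TET1-FL and 8.95 with mTET1-FL, against 8.21 and 8.31 with the CD plasmids and 8.07 with the vector. Its FL minus CD difference was 0.59 ± 0.18 (limma adjusted p = 0.268). BEX2, linked to cell survival, read 6.45 for TET1-FL and 6.87 for mTET1-FL, 5.99 for TET1-CD and 6.15 for mTET1-CD, and 6.14 with the vector, with a difference of 0.59 ± 0.15 (limma adjusted p = 0.213). In both genes the FL readings lay above all other arrays, and the mutant exceeded the wild type in each construct, unlike TCEAL7. BEX3, a partner of the neurotrophin receptor, differed by 0.10 ± 0.16. GPRASP1, a receptor sorting gene of the same X region, differed by -0.66 ± 0.13 (limma adjusted p = 0.152). None of these 4 genes passed, and the background was 0%.

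**Figure D5:**
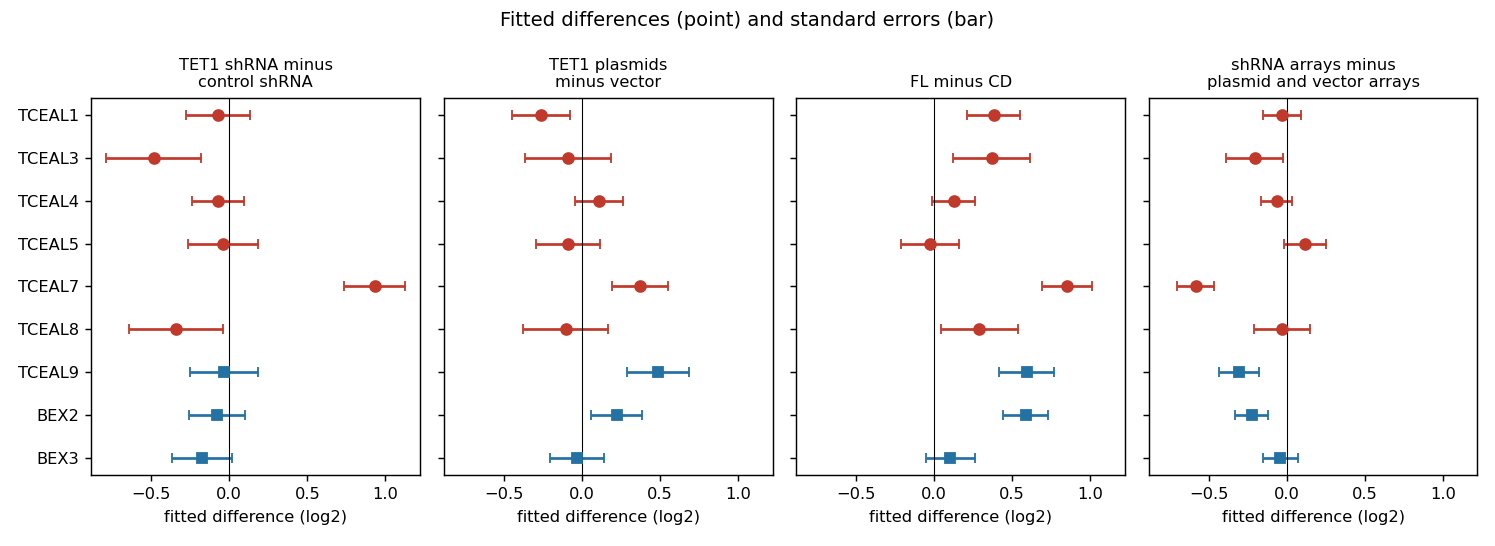
Fitted log2 difference (point) and its standard error (bar) in 4 comparisons for the 6 kept TCEAL genes (circles) and for TCEAL9, BEX2 and BEX3 (squares). TCEAL7 lies farthest from 0 among the 6 kept TCEAL genes in each panel, at 0.93, 0.37, 0.85 and -0.58. In any of the 4 panels, 0 of the genes shown passed the threshold. Of all kept clusters, 5.41% passed in the last panel and 0% in each other panel.

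The shRNA arm and the plasmid arm differ in delivery, clone selection and sorting, which cannot be told apart. In this comparison 5.41% of all kept clusters passed the threshold and 0 of the 6 members did. TCEAL7 was lower in the 3 shRNA arrays than in the 5 others by -0.58 ± 0.12 (limma adjusted p = 0.0598). Its arrays overlapped, since shTET1#1 (5.54) exceeded the vector (5.36) and mTET1-CD (4.78). It passed with 1 named cluster per gene (limma adjusted p = 0.0309), where 1295 of 10797 clusters tested passed. The difference was -0.82 without shTET1#1 and -0.66 without the array labelled shTET1#2. With 1 clone left, the residual spread of TCEAL7 itself comes only from its wild-type minus mutant values in CD and FL, which also chose it. The fit combines that spread with a prior from all kept clusters. The p-values of these settings are therefore not used as a test. Without the FL arrays the difference was -0.25. The marker EYA1 was lower in the shRNA arrays by -1.02 ± 0.15 (limma adjusted p = 0.0390), 1 of 6 HEK293T markers to pass, and its part in the TCEAL7 difference was not tested. Of the 8 members, 0 had shRNA arrays all below or all above the others, beside 8.18% and 7.67% of all kept clusters. The other members differed by -0.21 (TCEAL3) to 0.12 (TCEAL5), and 1 of 6 (TCEAL7) had an unadjusted p under 0.05, where the background was 26.6%. TCEAL5 lay above the array median only in shControl (by 0.11) and the array labelled shTET1#2 (by 0.15). It thus passed the filter only through the shRNA arm, where it was higher. Its difference between the arms is a description and not a test, although it is counted among the 6.

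Genes whose pattern over the 8 arrays was most like that of TCEAL7 were ranked by Pearson correlation among 10796 other named genes. The 5 highest were MIR3163 (r = 0.960), SH3BGR (0.955), the imprinted gene MKRN3 (0.953), the glutathione transferase gene GSTO2 (0.914) and LOC100130673 (0.910). They are the extremes of many correlations over 8 arrays, and are given as a description. The 8 arrays include the wild-type and mutant plasmids, so a high r largely builds in a wild-type difference of the same direction. The swings of these 5 genes were smaller. SH3BGR ran from 5.66 in shControl to 6.19 with TET1-FL, and wild type exceeded mutant by 0.20 in CD and 0.28 in FL. LOC100130673 ran from 5.33 in shControl to 7.10 with TET1-FL, with wild type higher by 0.33 and 0.84. Within the family, r with TCEAL7 was 0.83 for TCEAL6, 0.62 for TCEAL4, 0.54 for TCEAL2, 0.20 for TCEAL8, 0.16 for TCEAL1, 0.14 for TCEAL3 and -0.51 for TCEAL5.

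Genes of transcription elongation were set beside the family. Of the list around TFIIS, 4 genes were named and kept (IWS1, SUPT6H, TCEANC and TCEANC2), and 0 passed in any of the 4 comparisons. TCEA1, which encodes TFIIS itself, was not among them. Of all kept clusters, 5.41% passed between the arms and 0% in each other comparison. SUPT6H, a histone chaperone of elongating polymerase, differed by 0.58 ± 0.16 with TET1 plasmids against vector (limma adjusted p = 0.238) and by -0.56 ± 0.10 between the shRNA and plasmid arms (limma adjusted p = 0.0530). TCEANC2 differed by -0.43 ± 0.11 between the arms (limma adjusted p = 0.0900). TCEANC, which shares a TFIIS domain, differed by 0.40 ± 0.22 with TET1 shRNA. It was 0.59 above shControl in shTET1#1 and 0.21 above it in the array labelled shTET1#2. Its signal lay near the array median. The array labelled shTET1#2, mTET1-CD, TET1-FL and mTET1-FL held the identical value of 5.64. Of the wider elongation machinery, 14 genes were kept and 0 passed, beside the same shares of all kept clusters. HEXIM1, an inhibitor of the elongation kinase P-TEFb, had the largest difference of this list in 3 comparisons. It differed by -0.48 ± 0.18 with TET1 shRNA, by 0.84 ± 0.16 with plasmids against vector and by 0.77 ± 0.15 for FL against CD (limma adjusted p = 0.626, 0.189 and 0.153). The elongation factor gene ELL differed by 0.75 ± 0.16 with plasmids against vector. Between the arms the largest of this list was CCNT1, a cyclin of P-TEFb, at -0.53 ± 0.10 (limma adjusted p = 0.0568).

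Genes that reports on TCEAL7 have tied to it were also read. Of these, 8 were kept and 0 passed in any comparison. The share of all kept clusters passing was 5.41% between the arms and 0% in each other comparison. MYC was lower with wild type than mutant by -0.48 in CD and -0.062 in FL. The cyclin gene CCND1 differed by -0.16 and 0.068, and the telomerase gene TERT by 0.072 and 0.035. The NF-kB subunit gene NFKB1 differed by 0.072 and -0.014. In the tested comparisons NFKB1 differed by 0.61 ± 0.21 with plasmids against vector, by -0.44 ± 0.19 for FL against CD and by 0.63 ± 0.14 between the arms (limma adjusted p = 0.304, 0.416 and 0.0694). The survival gene BCL2L1 differed by 0.46 ± 0.088 between the arms (limma adjusted p = 0.0553), and TERT by -0.46 ± 0.13 for FL against CD (limma adjusted p = 0.248). With TET1 shRNA, TERT differed by -0.38 ± 0.16 and CCND1 by -0.27 ± 0.50. CCND1 read 7.64 for shControl, 6.76 for shTET1#1 and 7.98 for the array labelled shTET1#2. Over the 8 genes the median of the mean wild-type minus mutant difference was -0.047, and 3 lay above 0. The median over all kept clusters was 0 in each construct.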

How the data were processed

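The authors deposited log2 signals per transcript cluster. Their software was Expression Console 1.3.1 with RMA, per the submitters' processing notes; RMA subtracts background, equalises the arrays and combines probes. The genome build is not given in the sources used here. Of 53981 rows, 364 held no value. Array medians lay between 5.47 and 5.55, and the number of arrays limits the precision.

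All 8 arrays entered 1 fit in limma 3.58.1 (R 4.3.3; lmFit, eBayes) with a mean for each of control shRNA, TET1 shRNA, vector, mutant plasmids and wild-type plasmids, and a construct term (plus or minus 0.5), leaving 2 residual degrees of freedom. Adjusted p-values are Benjamini-Hochberg values over all 28946 kept clusters. The fit was tested on simulated data. The members and gene lists were chosen with earlier results of these data known. The genes named are all members, TCEAL9 and BEX genes, the 5 neighbours on each side, the 5 genes most correlated with TCEAL7, and list members past the threshold or the 2 largest. EYA1, APOA1, MYC, CCND1, TERT and NFKB1 in wild type against mutant, SH3BGR and LOC100130673 were singled out after their values were seen. Promoters came from RefSeq tables of GRCh38.p14, where all 16098 named clusters matched by gene number, and identity is matched bases per 300 in a global alignment (Biopython 1.88; match 1, mismatch -1, gap -2 and -0.5). Protein sequences were not used here. Alternatives were scaling, filter, prior, arrays left out and the control array.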

Additional observations from a re-analysis of the deposited data

Results flagged for a closer look

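For 5 members, wild type minus mutant had opposite signs in CD and FL, with 1 array on each side, and the difference between the constructs was not tested. FL minus CD in this difference was 0.51 for TCEAL1, 0.33 for TCEAL3, 0.30 for TCEAL4, 0.48 for TCEAL8 and -0.42 for TCEAL5.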

How the results depend on the processing

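The count of members past the threshold was 0 under each alternative for TET1 shRNA (12 alternatives), plasmids against vector (9) and FL against CD (7). Of all clusters tested, at most 5, 1 and 0 passed in these comparisons. For the shRNA arm against the plasmid arm the member count was 0 in 7 of 10 and became 1 (TCEAL7) with 1 named cluster per gene. The remaining alternatives left out a TET1 shRNA clone. With 1 named cluster per gene, 1295 of 10797 clusters passed, against 1566 of 28946 in the reported fit. The counts with a clone left out are not used. The residual spread of TCEAL7 itself then comes only from its wild-type minus mutant values, which also chose it. Members higher with wild type in both constructs rose from 1 to 2 without the filter, which brings in TCEAL6. Signs turned in 11 cases, all of them differences past no threshold. When 1 TET1 shRNA clone was left out, TCEAL5 ranged from -0.20 to 0.12 for TET1 shRNA, and for the arms TCEAL3 ranged from -0.29 to 0.036, TCEAL1 from -0.041 to 0.0079 and TCEAL8 from -0.12 to 0.17. With the vector array as the control, the TET1 shRNA difference of TCEAL4 was 0.0023 and TCEAL5 0.033. Without the CD arrays, plasmids against vector gave 0.096 for TCEAL3 and 0.041 for TCEAL8. Without the FL arrays that comparison gave -0.054 for TCEAL7, against 0.37 in the reported fit, so its sign there depended on the FL arrays. Without the FL arrays the arms differed by 0.064 for TCEAL1 and 0.054 for TCEAL8. The cause of these turns was not tested. FL minus CD for TCEAL7 stayed between 0.82 and 0.85 over 7 alternatives, with limma adjusted p between 0.0879 and 0.288. FL against CD could not be fitted without the CD or the FL arrays, and no member had another transcript cluster to try. No paired analysis was possible because the labels number only the TET1 shRNA clones, and the 1 given to every other array is only a name. CD and FL enter the fit as a construct term. Signal near the array median limits TCEAL5 and TCEAL7, and TCEAL2 and TCEAL6 lie below it.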
